A study of Homo sapiens with 20 samples.

Results

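The genes described here are 10 members of the ETS family of transcription factors: SPDEF, EHF, ELF3, ELK4, ETV1, ETV4, ETV5, ERG, FLI1 and ETS2. They were found as the probe sets annotated to exactly 1 of these symbols, 46 probe sets in all. For each gene the probe set with the highest mean over the arrays stood for the gene, which gives 10 of the 19775 genes with a probe set of their own, and every other probe set was used as a check. The arrays carried RNA of C42B and LNCaP, human prostate cancer lines of which C42B was derived from LNCaP. In C42B with siLSD1, cells were transfected for 6 h with siRNA against LSD1, the histone demethylase encoded by KDM1A, and kept for 96 h in medium with CSS, read here as charcoal-stripped serum; their controls, C42B with siNTC, had the control siRNA in its place (3 arrays each). In C42B with DHT, cells kept for 72 h in the same kind of medium were given 100 nM of the androgen dihydrotestosterone for 16 h, and C42B with vehicle (Veh) had ethanol instead (4 arrays each). In LNCaP with siLSD1 and LNCaP with siNTC, cells received 50 nM siRNA and were harvested after 96 h in medium with fetal bovine serum (3 arrays each).

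ETS proteins share a DNA-binding domain that reads a short GGAA or, for SPDEF, preferably GGAT core. In prostate epithelium SPDEF, EHF and ELF3 belong to the epithelium-restricted branches of the family, while ERG, ETV1, ETV4 and ETV5 are best known as the genes placed under other promoters by chromosomal rearrangement in prostate cancer. LNCaP is one of the lines with an ETV1 rearrangement. ELK4 belongs to the ternary complex factors, which bind DNA together with serum response factor and are phosphorylated by ERK kinases.

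Values are log2 of the deposited intensity, on which 1 unit is a doubling. A group mean of at least 6 is called bright and a lower one dim, and levels of different probe sets were not set against each other. A change passed at a Benjamini-Hochberg adjusted p under 0.05 in limma, adjusted over all 19775 genes, or over all 41097 single-gene probe sets where probe sets were tested one by one. The labels give separate wells for C42B and pools of wells for LNCaP without saying more of their independence, and what the p-values measure is the spread between the arrays of a group. Array medians of the intensity lay at 78.4 to 81.2 for the siRNA arrays of C42B, 84.1 to 86.1 for the DHT and vehicle arrays and 63.3 to 65.1 for LNCaP. KDM1A lay at 7.80 to 8.03 in C42B with siLSD1 and 10.21 to 10.37 in C42B with siNTC, and at 7.25 to 7.40 in LNCaP with siLSD1 and 9.95 to 10.23 in LNCaP with siNTC. Each line had 1 siLSD1 label, so effects of the siRNA sequence and of lower LSD1 cannot be told apart. All 7 luminal prostate markers analysed were bright in all 6 groups. Of the other markers looked at, 3 of 6 endothelial, 2 to 3 of 4 stromal, 0 to 1 of 3 leukocyte and 0 to 1 of 2 basal genes were bright. The mean of the 4 stromal genes lay at 6.66 to 6.91 on DHT arrays and 6.98 to 7.21 on vehicle arrays, and at 6.28 to 6.49 with siLSD1 and 6.57 to 6.62 with siNTC in LNCaP. In each of these comparisons 1 of the 4 passed, COL3A1, which fell by 1.60 with DHT and by 0.77 with siLSD1 in LNCaP. The median log2 fold change of the 4 was 0.07 with DHT and -0.06 with siLSD1 in LNCaP. The mean of the 2 basal genes, at a dim level, lay at 5.446 to 5.685 on DHT arrays and 5.222 to 5.423 on vehicle arrays, and at 5.86 to 5.90 with siLSD1 and 5.68 to 5.80 with siNTC in LNCaP. The luminal mean lay at 12.15 to 12.17 on DHT arrays and 10.29 to 10.48 on vehicle arrays, at 11.84 to 11.87 with siLSD1 and 11.57 to 11.59 with siNTC in C42B, and at 11.74 to 11.81 with siLSD1 and 11.43 to 11.54 with siNTC in LNCaP. The groups of a comparison overlapped in the other marker means. The actin control probe sets, read at the 3′ minus the 5′ end, differed by 1.17 to 1.31 with siLSD1 and 1.13 to 1.19 with siNTC in C42B, by 0.91 to 1.16 with DHT and 0.91 to 1.12 with vehicle, and by 0.93 to 1.08 with siLSD1 and 0.82 to 0.98 with siNTC in LNCaP. The part of these values in the results was not tested.

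Of the 10 genes, 4 passed with DHT, 1 with siLSD1 in C42B and 2 with siLSD1 in LNCaP. With DHT, SPDEF, ELK4 and EHF rose and ELF3 fell, against 13.4% of all genes called higher and 19.4% called lower. With siLSD1 in C42B, ELK4 rose and none fell, against 8.66% and 9.39% of all genes. With siLSD1 in LNCaP, SPDEF rose and ETV1 fell, against 13.4% and 12.5% of all genes. The median log2 fold change of the 10 genes was 0.14 with DHT, -0.04 with siLSD1 in C42B and 0.01 with siLSD1 in LNCaP, where the medians of all genes were 0.01, -0.02 and 0.01. ETV4, ERG and ETS2 passed in none of these comparisons, nor did ETV5 and FLI1.

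**Figure D1:**
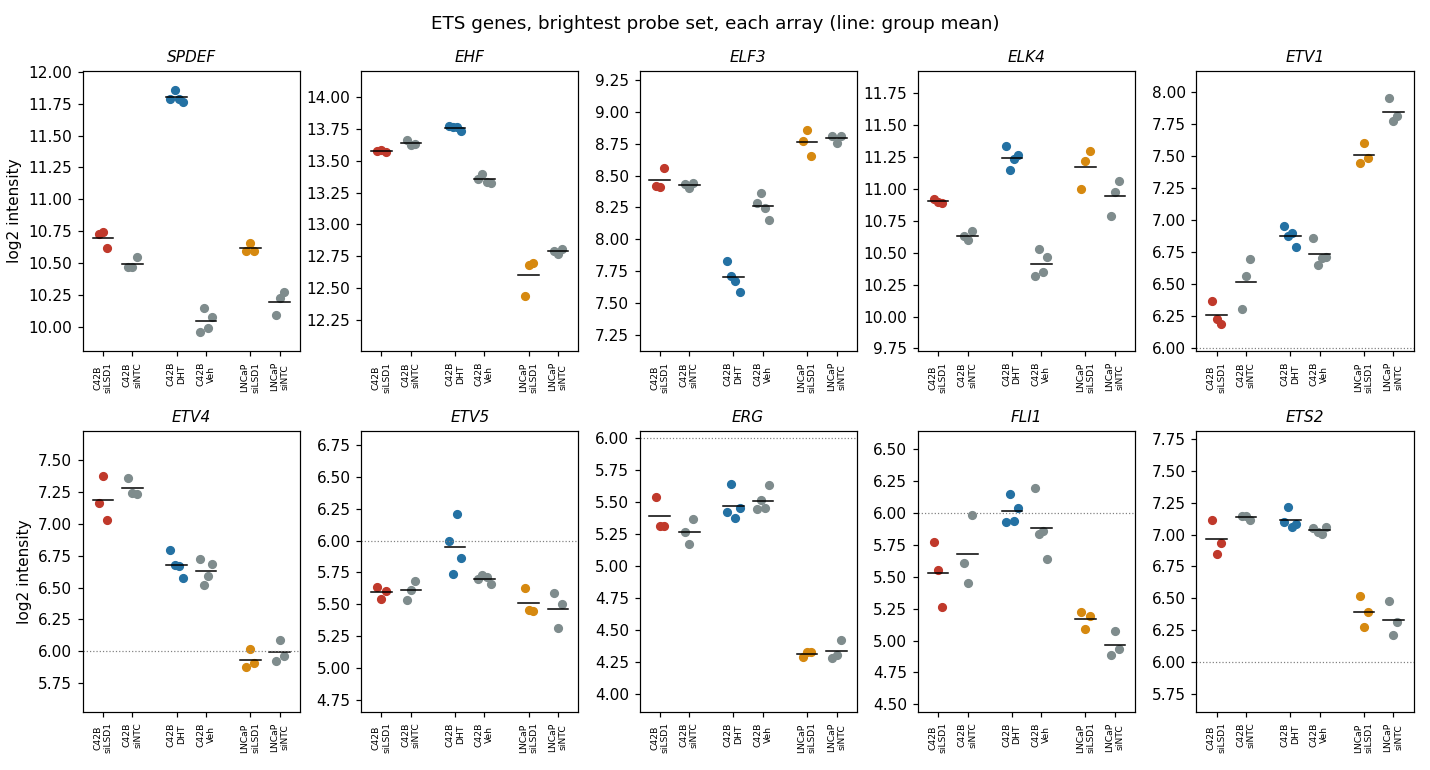
Log2 intensity of the brightest probe set of each gene on each array, in 6 groups, with a bar at the group mean and a dotted line at the bright level of 6. Each panel has its own vertical range; SPDEF, EHF and ELK4 are higher on all 4 DHT arrays than on all 4 vehicle arrays, and ELF3 is lower.

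The promoters of the 4 genes that passed with DHT are shown because they are the members for which the arrays hold an androgen response. Each window runs from 250 bases before to 50 after an annotated start, 5′ to 3′ on the gene's strand, from RefSeq's GRCh38.p14. Capitals mark the ETS core GGAA (TTCC on the other strand), and for SPDEF also GGAT (ATCC on the other strand). The windows are chr6:34556280-34556579, minus strand, for SPDEF, chr1:205631962-205632261, minus strand, for ELK4, chr11:34624007-34624306, plus strand, for the more upstream of 2 EHF starts, and chr1:202010337-202010636, plus strand, for ELF3.
SPDEF: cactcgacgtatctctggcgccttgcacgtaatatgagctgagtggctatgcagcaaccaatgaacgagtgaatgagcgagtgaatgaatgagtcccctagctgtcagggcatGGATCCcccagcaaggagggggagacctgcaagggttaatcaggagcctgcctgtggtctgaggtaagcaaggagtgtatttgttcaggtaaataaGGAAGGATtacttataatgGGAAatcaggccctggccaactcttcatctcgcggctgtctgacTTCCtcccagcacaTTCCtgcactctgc
ELK4: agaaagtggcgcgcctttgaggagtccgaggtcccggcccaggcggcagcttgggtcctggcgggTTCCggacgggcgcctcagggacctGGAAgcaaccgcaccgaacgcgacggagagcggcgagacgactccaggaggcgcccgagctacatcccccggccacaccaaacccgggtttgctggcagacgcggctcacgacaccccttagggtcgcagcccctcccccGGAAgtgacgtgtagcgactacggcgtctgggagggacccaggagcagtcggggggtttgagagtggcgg
EHF: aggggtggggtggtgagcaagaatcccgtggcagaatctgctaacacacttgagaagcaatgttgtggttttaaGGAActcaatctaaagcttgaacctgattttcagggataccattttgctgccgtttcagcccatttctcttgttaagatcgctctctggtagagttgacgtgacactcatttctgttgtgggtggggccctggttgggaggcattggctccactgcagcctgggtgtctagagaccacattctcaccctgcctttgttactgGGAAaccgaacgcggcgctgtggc
ELF3: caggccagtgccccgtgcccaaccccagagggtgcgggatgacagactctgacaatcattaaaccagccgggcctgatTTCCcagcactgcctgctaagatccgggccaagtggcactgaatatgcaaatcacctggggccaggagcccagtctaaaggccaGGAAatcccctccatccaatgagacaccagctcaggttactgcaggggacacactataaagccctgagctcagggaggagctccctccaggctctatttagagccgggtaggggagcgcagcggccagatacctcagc

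The SPDEF window held 4 GGAA and 3 GGAT cores on both strands together, and the ELK4 window held 3 GGAA cores. The EHF window held 2 GGAA cores, the window at the other EHF start held 0, and the ELF3 window held 2. The core is common: 95.5% of the 35116 promoter windows in the table held GGAA and 76.5% held GGAT on either strand. The longer site CCGGAAGT (ACTTCCGG on the other strand) was in the ELK4 window 1 time and in none of the other 3, against 4.14% of all windows. The androgen receptor hexamer AGAACA, sought on both strands, was in none of the 4 windows, against 14.8% of all windows, which says only that these letters are not there. Of the 10 genes, 7 had a window in the table.

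SPDEF, on chromosome 6, encodes the prostate-derived ETS factor, which in other secretory epithelia promotes goblet cell differentiation. With DHT its probe set 220192_x_at read 11.79, 11.86, 11.79 and 11.77, and with vehicle 9.96, 10.15, 9.99 and 10.08. The lowest DHT array lay well above the highest vehicle array. The log2 fold change was 1.75 ± 0.05 (SE), a 3.37-fold rise, with a limma adjusted p of 1.5e-08. It stood at rank 87 among the genes that were higher with DHT. The exact two-sided permutation test gave 0.029, the smallest p that 4 against 4 arrays allow.

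SPDEF also rose with siLSD1 in LNCaP. Its values were 10.60, 10.66 and 10.59 with siLSD1 and 10.09, 10.23 and 10.28 with siNTC, without overlap, and the log2 fold change was 0.42 ± 0.07 (limma adjusted p = 0.0022). In C42B the values were 10.73, 10.74 and 10.62 with siLSD1 and 10.47, 10.47 and 10.55 with siNTC. These groups did not overlap either, but the log2 fold change of 0.20 ± 0.06 had a limma adjusted p of 0.050 that did not pass (0.0502). It passed under 4 of the 14 alternatives, at 0.0069 to 0.049. The exact permutation test gave 0.1 in both lines, the smallest that 3 against 3 arrays allow. The siLSD1 effect in C42B minus that in LNCaP was -0.22 (95% interval -0.41 to -0.03), which did not pass (limma adjusted p = 0.13).

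The 5 SPDEF probe sets were of 2 kinds. With DHT, 220192_x_at, 213441_x_at and 214404_x_at rose by log2 fold changes of 1.75, 1.46 and 1.55, while 213442_x_at and 214403_x_at had 0.07 and 0.08 and did not pass. With siLSD1 in LNCaP the first 3 rose by 0.42, 0.32 and 0.31, and 214403_x_at had -0.15. With siLSD1 in C42B, 0 of the 5 passed. Over all probe sets 12.1% were called higher with DHT, 11.2% with siLSD1 in LNCaP and 6.37% with siLSD1 in C42B. All 5 names end in _x_at, the array maker's mark for probe sets that share probes with other sequences. The difference between the lines passed for 1 of the 5, 213441_x_at, at -0.33 (limma adjusted p = 0.046 over probe sets), where 4.12% of all probe sets were called higher and 4.33% lower.

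EHF, on chromosome 11, encodes an epithelial ETS factor of the ESE subfamily. With DHT its probe set 225645_at read 13.77, 13.77, 13.76 and 13.73, and with vehicle 13.36, 13.40, 13.33 and 13.32. The groups were apart, and the log2 fold change was 0.41 ± 0.04 (limma adjusted p = 2.5e-05). All 6 EHF probe sets rose with DHT, by log2 fold changes of 0.41 to 1.01, where 12.1% of all probe sets were called higher, and the brightest one had the smallest change.

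With siLSD1 in LNCaP, EHF read 12.44, 12.68 and 12.69 on 225645_at, against 12.79, 12.77 and 12.81 with siNTC. All 3 siLSD1 arrays were lower, with 1 of them well below the other two, and the log2 fold change of -0.18 ± 0.08 did not pass (limma adjusted p = 0.13). Of the 6 probe sets, 4 fell in LNCaP, by 0.42 to 0.55, where 10.7% of all probe sets were called lower, and on the mean of the 6 the gene fell by 0.39 (limma adjusted p = 0.0046). In C42B, 225645_at read 13.58, 13.58 and 13.57 with siLSD1 and 13.67, 13.62 and 13.63 with siNTC, a log2 fold change of -0.06 that did not pass (limma adjusted p = 0.39). There 1 probe set, 222932_at, fell by 0.30, where 6.32% of all probe sets were called lower. The difference between the lines was 0.12 on 225645_at (95% interval -0.08 to 0.32, limma adjusted p = 0.45). On 232361_s_at and 224189_x_at it was 0.33 and 0.61, which passed over probe sets.

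ELF3, on chromosome 1, encodes another ESE factor of epithelia. With DHT its probe set 210827_s_at read 7.83, 7.71, 7.68 and 7.59, and with vehicle 8.28, 8.36, 8.25 and 8.15. Every DHT array was lower than every vehicle array. The log2 fold change was -0.56 ± 0.06 (limma adjusted p = 1.2e-04), so ELF3 moved against its subfamily member EHF in the same cells. All 3 ELF3 probe sets fell, by 0.56 to 0.86, where 14.9% of all probe sets were called lower. On 229842_at the mean was 5.76 with DHT, below the bright level, and 6.62 with vehicle. With siLSD1 the log2 fold change was 0.04 ± 0.06 in C42B and -0.03 ± 0.07 in LNCaP, neither of which passed, and the groups overlapped.

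ELK4, also on chromosome 1, is the neighbour of SLC45A3 among protein-coding genes, with 0 others between them, and read-through RNA that joins SLC45A3 to ELK4 is known from prostate cells. Its probe set 225159_s_at read 11.34, 11.15, 11.23 and 11.27 with DHT and 10.32, 10.53, 10.35 and 10.46 with vehicle. All DHT arrays were higher, and the log2 fold change was 0.83 ± 0.06, a 1.78-fold rise (limma adjusted p = 5.4e-06). Of the 7 ELK4 probe sets 5 rose with DHT, by 0.72 to 1.11, where 12.1% of all probe sets were called higher, and the other two had 0.25 and 0.14. SLC45A3 itself read 11.68 with DHT and 7.85 with vehicle, a 14.2-fold rise. How much of the ELK4 signal came from read-through RNA was not tested.

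ELK4 was the member that rose with siLSD1 in C42B. It read 10.92, 10.90 and 10.89 with siLSD1 and 10.63, 10.60 and 10.67 with siNTC, without overlap, and the log2 fold change was 0.27 ± 0.05 (limma adjusted p = 0.0082). There 4 of the 7 probe sets rose, by 0.27 to 0.42, where 6.37% of all probe sets were called higher, while 214831_at and 230549_at had -0.02 and -0.10. SLC45A3 rose by 1.19 in the same cells. In LNCaP, ELK4 read 11.00, 11.22 and 11.30 with siLSD1 and 10.79, 10.98 and 11.07 with siNTC. These groups overlapped, and the log2 fold change of 0.23 ± 0.10 did not pass (limma adjusted p = 0.14), although 2 of the 7 probe sets, 206919_at and 205994_at, rose by 0.36 and 0.43, where 11.2% of all probe sets were called higher. The difference between the lines was 0.05 for ELK4 (95% interval -0.21 to 0.30) and did not pass. SLC45A3 rose by 0.69 with siLSD1 in LNCaP. Its difference between the lines, 0.50, passed on its brightest probe set (limma adjusted p = 0.0015).

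**Figure D2:**
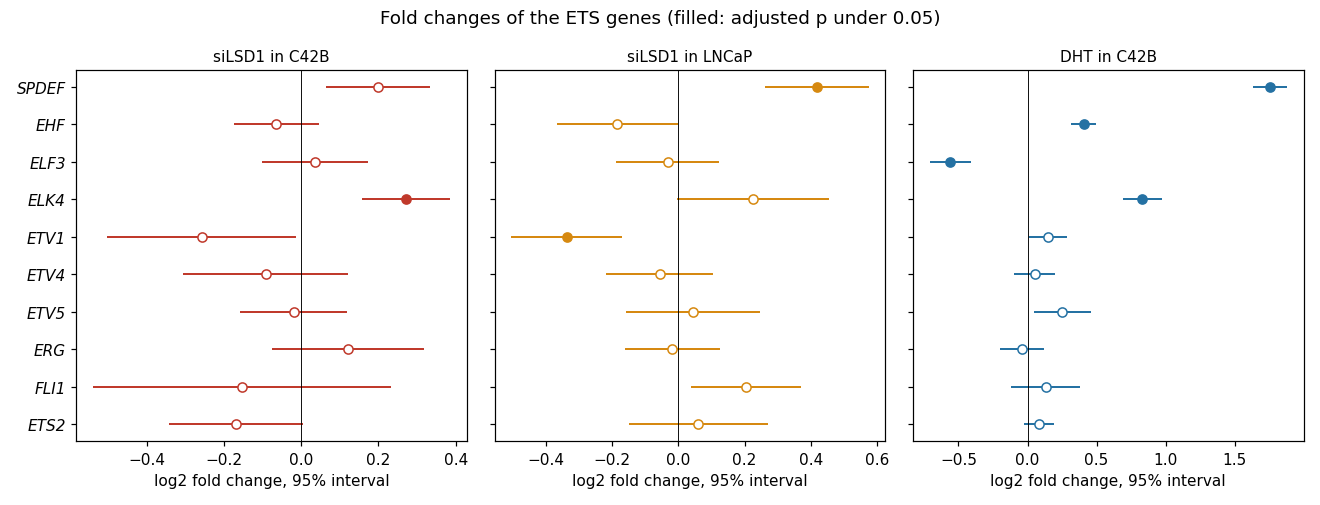
Log2 fold changes of the 10 genes with 95% intervals, for siLSD1 over siNTC in C42B and in LNCaP and for DHT over vehicle in C42B; filled points passed at an adjusted p under 0.05. Each panel has its own horizontal range; SPDEF has the largest of the 30 changes, 1.75 with DHT.

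ETV1, on chromosome 7, encodes a factor of the PEA3 group, as do ETV4 and ETV5. With siLSD1 in LNCaP its brightest probe set 206501_x_at read 7.45, 7.60 and 7.48, and with siNTC 7.96, 7.78 and 7.81. The groups did not overlap, and ETV1 fell by 0.34 ± 0.07 (log2, SE; limma adjusted p = 0.0091). Of its 5 probe sets 4 fell in LNCaP, by 0.27 to 0.44, where 10.7% of all probe sets were called lower, and 221910_at, dim in all groups, had 0.04. In C42B the values were 6.37, 6.22 and 6.18 with siLSD1 and 6.30, 6.56 and 6.69 with siNTC. These overlapped, and the log2 fold change of -0.26 ± 0.10 did not pass (limma adjusted p = 0.14), nor did any of the 5 probe sets. All but 206501_x_at were dim in both of these C42B groups, so their not passing says little. 206501_x_at carries the _x_at mark explained for SPDEF, and how much of its C42B signal came from ETV1 was not tested. On 206501_x_at the difference between the lines, 0.08 (95% interval -0.21 to 0.37), did not pass. With DHT, ETV1 read 6.95, 6.87, 6.90 and 6.79, and with vehicle 6.86, 6.65, 6.70 and 6.71, a log2 fold change of 0.15 ± 0.06 that did not pass (limma adjusted p = 0.079).

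The level of ETV1 set the lines apart most plainly on 221911_at, a probe set looked at closely only after its values were seen. In LNCaP it read 9.14, 9.29 and 9.36 with siLSD1 and 9.45, 9.87 and 9.80 with siNTC. In C42B its 14 arrays read 2.75 to 3.27, with group means of 3.02 with siLSD1 and 3.11 with siNTC, and of 2.85 with DHT and 2.85 with vehicle. The lowest LNCaP array was 5.87 above the highest C42B array, and the means differed by 6.54. The C42B values are dim and near the lowest value of any single-gene probe set, 2.12, so no ratio of intensities is given. Among the 41097 probe sets only 1, 223557_s_at of TMEFF2, a transmembrane gene of prostate and brain, had a larger gap in that direction; it too was named after its values were seen. The fall with siLSD1 in LNCaP was 0.44 ± 0.11 on this probe set (limma adjusted p = 0.024 over probe sets).

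All 5 ETV1 probe sets were higher on every LNCaP array than on every C42B array. The gaps of the other 4 between the lowest LNCaP and the highest C42B array were 0.50, 0.68, 1.50 and 0.84. Of all probe sets, 8.21% lay higher and 29.5% lay lower on every LNCaP array than on every C42B array. These levels are a description with no test, since the experiments were apparently normalized apart, and line, medium and experiment cannot be told apart. After quantile normalization over all 20 arrays the gap of 221911_at was 6.09, again exceeded by 1 probe set.

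**Figure D3:**
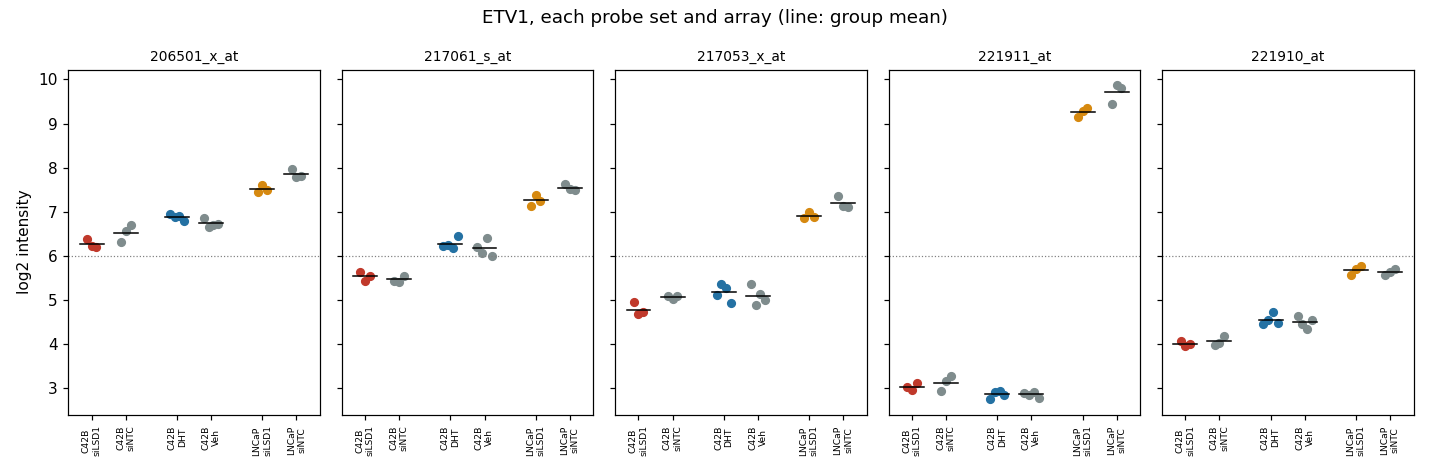
Log2 intensity of each of the 5 ETV1 probe sets on each array, on 1 vertical axis, with a bar at the group mean and a dotted line at the bright level of 6. On 221911_at the 6 LNCaP arrays lie at 9.14 to 9.87 and the 14 C42B arrays at 2.75 to 3.27.

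The other PEA3 genes did not pass on their brightest probe sets. ETV4, on chromosome 17, read 7.16, 7.37 and 7.03 with siLSD1 and 7.36, 7.24 and 7.24 with siNTC in C42B. It read 6.79, 6.68, 6.67 and 6.57 with DHT and 6.72, 6.52, 6.59 and 6.68 with vehicle, and averaged 5.94 ± 0.07 with siLSD1 and 5.99 ± 0.09 with siNTC in LNCaP (SD, n = 3 each). All 3 pairs of groups overlapped, with log2 fold changes of -0.09, 0.05 and -0.06. ETV5, on chromosome 3, was dim in all 6 groups. It read 6.00, 5.74, 6.20 and 5.86 with DHT and 5.70, 5.73, 5.71 and 5.66 with vehicle, which did not overlap, and the log2 fold change of 0.25 ± 0.09 did not pass (limma adjusted p = 0.055). Of its 5 probe sets, 1 rose, 203349_s_at in LNCaP with siLSD1, by 0.43, where 11.2% of all probe sets were called higher, and it too was dim.

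ERG and FLI1, close relatives known from blood vessel and blood cells, gave little signal. ERG, on chromosome 21, had group means of 5.39 with siLSD1 and 5.27 with siNTC in C42B, 5.47 with DHT and 5.51 with vehicle, and 4.31 with siLSD1 and 4.33 with siNTC in LNCaP. All were dim, and of the 4 ERG probe sets 1, 211626_x_at, rose with DHT, by 0.24, at a dim level, where 12.1% of all probe sets were called higher. FLI1, on chromosome 11 next to ETS1, had a mean of 6.01 ± 0.10 with DHT and 5.88 ± 0.23 with vehicle (SD, n = 4 each), and was dim in the other 5 groups. In LNCaP it read 5.22, 5.09 and 5.20 with siLSD1 and 4.89, 5.08 and 4.94 with siNTC, which did not overlap, and the change of 0.20 did not pass (limma adjusted p = 0.071). None of its 6 probe sets passed in any comparison. ETS2, on chromosome 21 next to ERG, encodes a broadly expressed factor activated by ERK. It averaged 6.97 ± 0.14 with siLSD1 and 7.13 ± 0.02 with siNTC in C42B, and 6.39 ± 0.12 with siLSD1 and 6.33 ± 0.14 with siNTC in LNCaP (SD, n = 3 each). With DHT it averaged 7.12 ± 0.07 and with vehicle 7.03 ± 0.03 (SD, n = 4 each), without overlap, and the change of 0.08 did not pass (limma adjusted p = 0.20).

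**Figure D4:**
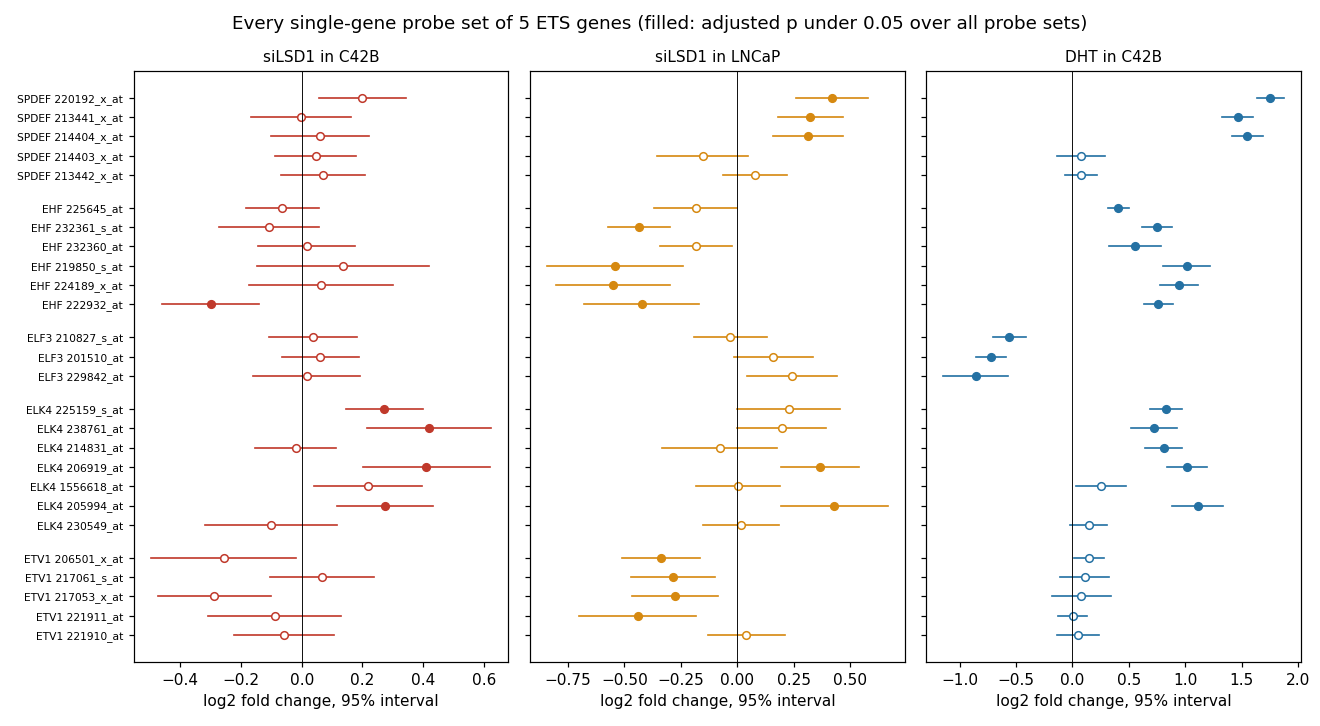
Log2 fold changes with 95% intervals of all 26 single-gene probe sets of SPDEF, EHF, ELF3, ELK4 and ETV1; filled points passed at an adjusted p under 0.05 over all probe sets. Each panel has its own horizontal range; all 6 EHF probe sets rose and all 3 ELF3 probe sets fell with DHT, and 4 of 5 ETV1 probe sets fell with siLSD1 in LNCaP.

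On the brightest probe sets the order of the groups by level differed between genes, and across experiments it is a description only. For SPDEF and EHF the DHT group was the highest and overlapped with no other group. For ELF3 and ETV1 the 2 LNCaP groups were the highest; for ELF3 they overlapped each other, and for ETV1 they did not. For ETV4, ERG and ETS2 the 2 LNCaP groups were the lowest and overlapped each other. Other probe sets did not all keep these orders. The dim 241926_s_at of ERG and 241193_at of ETS2 were higher on every LNCaP array than on every C42B array. On 201510_at of ELF3 the vehicle group had the highest mean, 7.50. For ELK4 the DHT group overlapped with LNCaP with siLSD1, and vehicle was the lowest, apart from the next group. The differences in siLSD1 effect between the lines gave 0 of 10 genes in limma, against 5.56% of all genes called higher in C42B and 6.07% called lower. At an unadjusted p under 0.05 there was 1, SPDEF, and on means of probe sets there was 1, EHF, at 0.34 (limma adjusted p = 0.035).

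The genes of most similar pattern were sought for SPDEF and ELK4, the members bright in all groups with the largest sums of changes. Likeness was the summed absolute difference of the 3 log2 fold changes, among 11910 genes bright in all 6 groups. For SPDEF the nearest were MTMR9 (0.13), FGD4 (0.27) and KLK4 (0.27), which had 1.65, 1.60 and 1.71 with DHT. For ELK4 they were CYTH1 (0.078), GMPPA (0.14) and WWC1 (0.14), which had 0.82, 0.80 and 0.84 with DHT.

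Of 17 other ETS family genes, 4 rose and 2 fell with DHT, against 13.4% of all genes called higher and 19.4% lower. ELK3, a ternary complex factor like ELK4, fell by 0.90 and the repressor ETV6 by 0.30, while ELF2 rose by 0.66 and FEV by 0.39. With siLSD1 in C42B, 3 rose and 0 fell, against 8.66% and 9.39% of all genes, namely ELF5 by 0.61, ELF1 by 0.39 and FEV by 0.22. The FEV call was lost under 9 of the 14 alternatives, with a limma adjusted p of up to 0.116, the replicate block and each single array left out among them. ELF5 is the neighbour of EHF, with 0 protein-coding genes between them, and EHF did not pass there. With siLSD1 in LNCaP, 3 rose and 0 fell, against 13.4% and 12.5% of all genes, among them ETV3 by 0.33 and ELF2 by 0.22. ELF2 lost its call under 7 of the 14 alternatives, having 0.10 on the mean of its probe sets (limma adjusted p = 0.224), and ETV3 under 3, each with 1 array left out. The medians of the 17 were 0.07 with DHT, 0.03 in C42B and 0.01 in LNCaP.

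Of 20 regulators and partners of ETS proteins, 4 rose and 4 fell with DHT, against 13.4% of all genes called higher and 19.4% lower. DET1, which with COP1 marks PEA3 proteins for degradation, fell by 0.67, and GABPB2, a partner of the ETS protein GABPA, fell by 0.32. GABPB1 rose by 0.28 and SRF, the partner of ELK4, by 0.27. With siLSD1, 1 fell in C42B, GABPB2 by 0.30, and in LNCaP 1 rose and 2 fell, namely MAPK3 by 0.35, GABPB2, which fell by 0.38, and CUL4A, which fell by 0.23. All genes were called higher and lower at 8.66% and 9.39% in C42B and at 13.4% and 12.5% in LNCaP. In LNCaP the calls of CUL4A and GABPB2 were each lost under 3 of the 14 alternatives, and CUL4A had -0.096 on the mean of its probe sets (limma adjusted p = 0.226). Of 14 output genes of the ERK pathway shared with ETV4 and ETV5, 3 rose and 1 fell with DHT, 0 rose and 2 fell in C42B with siLSD1, and 2 rose and 2 fell in LNCaP with siLSD1. The shares of all genes for these 3 comparisons, as above, were 13.4% higher and 19.4% lower, 8.66% and 9.39%, and 13.4% and 12.5%. SPRY2, a feedback inhibitor of the pathway, rose by 0.58 with DHT and fell by 0.43 in C42B and by 0.37 in LNCaP with siLSD1. With DHT, DUSP4 rose by 0.37 and SPRED2 by 0.16, and EPHA2 fell by 0.32, a call lost under 2 of the 16 alternatives. With siLSD1 in LNCaP, EGR1 rose by 0.78 and EPHA2 by 0.46, while PHLDA1 fell by 0.61. The EGR1 mean was 6.32 with siLSD1 and 5.54, a dim level, with siNTC there. The LNCaP call of SPRY2 was lost under 3 of the 14 alternatives, each with 1 array left out. SPRED1, also an inhibitor of the pathway, fell by 0.29 in C42B, was lost as a call under 6 of 14, and had -0.0845 on the mean of its probe sets (limma adjusted p = 0.547). The list medians for DHT, C42B and LNCaP were -0.02, -0.04 and 0.00 for the regulators, and 0.00, -0.11 and 0.09 for the ERK outputs.

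Of 12 genes known as fusion partners or rearrangement sites of ETS genes, 8 rose and 2 fell with DHT, 6 rose and 1 fell with siLSD1 in C42B, and 6 rose and 2 fell with siLSD1 in LNCaP. Of all genes, 13.4% were called higher and 19.4% lower with DHT, 8.66% and 9.39% with siLSD1 in C42B, and 13.4% and 12.5% with siLSD1 in LNCaP. The list medians were 0.51, 0.18 and 0.21. KLK2 rose by 5.19, SLC45A3 by 3.83, NDRG1 by 3.24 and FKBP5 by 3.12 with DHT. TMPRSS2, the most frequent partner of ERG, rose by 3.08 with DHT, by 0.77 in C42B and by 0.77 in LNCaP with siLSD1, while ERG on its brightest probe set was dim throughout. HMGN2P46, a partner of ETV1, rose by 1.50 in C42B and by 2.43 in LNCaP with siLSD1. Its mean was lower with DHT, at 8.07, than with vehicle, at 8.54. NDRG1 had a lower mean with siLSD1 than with siNTC in C42B (10.44 and 10.85), as did FKBP5 in LNCaP (10.65 and 11.02).

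Of 15 secretory genes linked to SPDEF, 6 rose and 2 fell with DHT, 4 rose and 0 fell in C42B with siLSD1, and 5 rose and 1 fell in LNCaP with siLSD1. For these and the next 2 lists the shares of all genes called higher and lower were 13.4% and 19.4% with DHT, 8.66% and 9.39% in C42B, and 13.4% and 12.5% in LNCaP. CREB3L4 rose by 0.96, AGR2 by 0.79 and KLK3 by 2.74 with DHT, while BCL2L14 fell by 0.53. On the mean of its probe sets BCL2L14 had -0.054, which did not pass (limma adjusted p = 0.466). TFF1 rose by 0.99 in C42B and by 1.94 in LNCaP with siLSD1, and AGR2 fell by 0.72 in LNCaP. Of 12 genes linked to ELF3 and EHF in epithelia, 2 rose and 2 fell with DHT: the keratins KRT8 and KRT18 rose by 1.38 and 0.82, and CLDN4 and CDH1 fell by 0.30 and 0.19. With siLSD1, CDH1 rose by 0.23 in C42B and CLDN7 by 0.40 in LNCaP, the 1 gene called in each. CDH1 in C42B had 0.085 on the mean of its probe sets (limma adjusted p = 0.366) and lost its call under 3 of the 14 alternatives. The DHT calls of CLDN4 and CDH1 were each lost under 1 of 16, CLDN4 with -0.15 on the mean of its probe sets (limma adjusted p = 0.0889) and CDH1 with -0.12 after median centring (0.0699). Of 14 genes higher in ERG-rearranged prostate tumours, 5 rose and 2 fell with DHT, 2 rose and 0 fell in C42B, and 3 rose and 0 fell in LNCaP. CRISP3 rose by 1.21 with DHT and by 1.43 in C42B with siLSD1, and PLA2G7 rose by 0.99 in C42B and 0.56 in LNCaP with siLSD1. With DHT, PEX10 rose by 1.21 and VCL by 0.60, while KCNS3 fell by 1.17. CACNA1D rose by 0.44 in LNCaP with siLSD1, a call lost under 6 of the 14 alternatives (limma adjusted p of up to 0.141). Its LNCaP mean was 6.26 with siLSD1 and 5.82, a dim level, with siNTC, so only the siLSD1 group met the bright level. The medians for DHT, C42B and LNCaP were 0.11, 0.04 and 0.07 for the SPDEF list, 0.10, 0.04 and 0.08 for the ELF3 and EHF list, and 0.03, -0.02 and 0.04 for the ERG list. The luminal marker means given at the start lay apart in all 3 comparisons, higher with DHT and with siLSD1 in both lines. Of the 7 luminal genes, 5 rose and 2 fell with DHT. With siLSD1, 3 rose and 0 fell in each line, against the shares of all genes given above. KLK2 and TMPRSS2 of the fusion list, KLK3 of the SPDEF list and KRT8 and KRT18 of the ELF3 and EHF list are among these 7. Beyond these shared genes, the part of the luminal means in the counts was not tested.

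**Figure D5:**
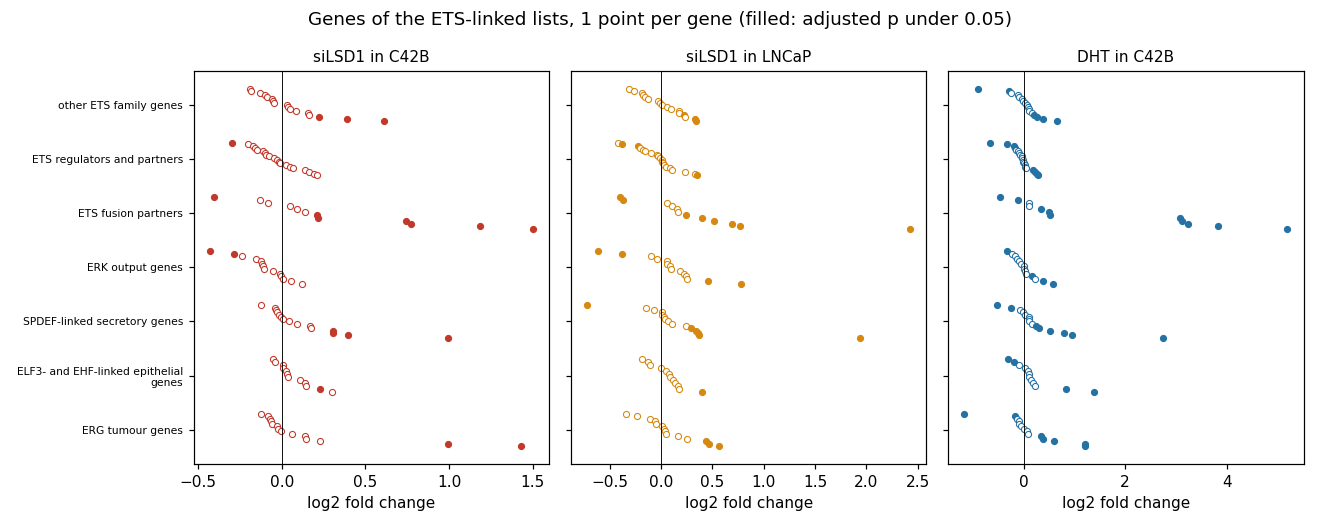
Log2 fold change of every measured gene of 7 lists linked to ETS factors, 1 point per gene, in the 3 comparisons; filled points passed at an adjusted p under 0.05. Each panel has its own horizontal range; the fusion partner list holds the largest change, 5.19 for KLK2 with DHT.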

How the data were processed

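Expression was read on 20 Affymetrix arrays with 54675 probe sets each. The authors deposited linear intensity values, made with RMA in affy per the submitters' processing notes (versions: not given in the sources used here). Array distributions of intensity differ by experiment. Per the labels, a pair of labelling kits was used, but samples are not assigned to them, so kit could not be a term. The number of arrays limits the precision.

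The log2 of each intensity was taken. Of the probe sets, 41097 name 1 gene, 1801 several, and the rest none or are controls. Members and lists were chosen with earlier results of these data known. All 10 members are named, with up to 4 passing genes a list and comparison, those of largest change with a bright group, and promoters of up to 4 passing members. Limma 3.58.1 (lmFit, eBayes; R 4.3.3) was run two-sided and without covariates on the arrays of each comparison, and over the 12 siRNA arrays for the difference between lines. The fit was tested on simulated data. Python 3.11.15 and matplotlib 3.10.9 were used for sequences and figures. Alternatives were the mean of probe sets, every probe set, genes with a bright group, the replicate block, eBayes with trend and robust, arrays scaled by quantiles or centred on medians, 1 fit of all arrays, and single arrays left out. Whether equal replicate numbers pair the arrays was not known, and the main fits took the arrays as unpaired. ETV3L, ACSL3 and SPRR2A of the lists were not analysed here. Other lists were also incomplete, with 20 of 21 regulators, 7 of 9 luminal, 2 of 3 basal and 3 of 5 leukocyte genes analysed.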

Additional observations from a re-analysis of the deposited data

Results flagged for a closer look

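The siLSD1 effect differed between C42B and LNCaP, by the limma contrast over the 12 siRNA arrays with adjustment over all genes or all probe sets, for the genes and probe sets that follow. Values are the log2 effect in C42B minus that in LNCaP, and the lines also differed in medium and siRNA conditions, so line and condition cannot be told apart.

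Among the ETS members, 213441_x_at of SPDEF had -0.33, and EHF had 0.33 on 232361_s_at and 0.61 on 224189_x_at (0.615 before rounding). The brightest probe sets of both genes did not pass. Among other ETS genes, ELF5 had 0.43 and ELF1 0.40, while ELF2 had -0.33 and ELF4 -0.36. Of 20 alternatives, ELF5 lost its call under 9, ELF1 under 10, ELF2 under 6 and ELF4 under 1. On means of probe sets ELF2 had -0.109 (limma adjusted p = 0.413).

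Among regulators and ERK outputs, MAPK3 had -0.36, EGR1 -0.79 and EPHA2 -0.58, while PHLDA1 had 0.37. Of the siRNA groups, EGR1 was bright only in LNCaP with siLSD1, with a mean of 6.32. It was dim with siNTC in LNCaP, at 5.54, and in C42B, at 5.40 with siLSD1 and 5.41 with siNTC. PHLDA1 lost its call under 9 of 20 alternatives, with 0.03 on the mean of its probe sets (limma adjusted p = 0.847), and MAPK3 under 4, with an adjusted p of 0.0716 with the replicate block. Among fusion partners, SLC45A3 had 0.50 and FKBP5 0.46, while NDRG1 had -0.65 and HMGN2P46 -0.92. SLC45A3 had 0.30 on the mean of its probe sets and did not pass there (limma adjusted p = 0.0569). Among the genes linked to SPDEF, ELF3, EHF or ERG, AGR2 had 0.68 and CRISP3 1.18, while TFF1 had -0.94 and CLDN7 -0.36. In 20 groups of 4 DHT or vehicle arrays, 1 for each member and treatment, Dixon's test found 0 outlying arrays.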

How the results depend on the processing

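The rise of SPDEF, EHF and ELK4 and the fall of ELF3 with DHT, the rise of SPDEF and the fall of ETV1 with siLSD1 in LNCaP and the rise of ELK4 with siLSD1 in C42B each kept direction and call under the 14 to 16 alternatives run per gene, single other probe sets aside. Where the gene or the other probe set had passed, the sign turned in 5 cases: ELK4 in C42B had -0.021 on 214831_at and -0.10 on 230549_at, SPDEF in LNCaP -0.15 on 214403_x_at, ETV1 in LNCaP 0.040 on 221910_at, and ERG with DHT 0.24 on 211626_x_at. Opposite signs where neither had passed were also found, as for ELF3 in LNCaP, with 0.24 on 1 probe set and -0.03 on the brightest. The count in C42B, 1 of 10, became 2 with bright genes only, with median centring and with trend and robust, 3 with all 20 arrays in 1 fit, and 1 to 2 with single arrays left out (2 without C42B siLSD1 replicate 1 or C42B siNTC replicate 1). The count in LNCaP, 2, became 4 with all 20 arrays in 1 fit. The count with DHT, 4, became 7 with median centring, and that of the difference, 0, became 1 with means of probe sets. With the replicate block the counts were 1, 3, 4 and 0 for C42B, LNCaP, DHT and the difference. Around their group means, same-numbered arrays correlated at -0.10 to 0.20 and differently numbered ones at -0.24 to 0.19. With so few arrays these values cannot decide whether the numbers pair the arrays. Of the 10 highest groups, 7 were the same after quantile normalization over all arrays and 6 on means of probe sets. Genes dim in both groups got no value in the fit of bright genes: ETV5, ERG and, for siLSD1, FLI1, with ETV4 in LNCaP. Besides SPDEF in C42B, changes that did not pass but did so elsewhere, other probe sets aside, were ELK4 in LNCaP with the replicate block (adjusted p = 0.035) and all arrays in 1 fit (0.034), EHF in LNCaP under 3 of 14 alternatives ETV1 with DHT under 5 of 16, ETV5 with DHT under 4 (0.014 to 0.0498), ETV1 in C42B with all arrays in 1 fit (0.0375) and without C42B siNTC replicate 1 (0.0358), ETS2 in C42B without C42B siLSD1 replicate 1 (0.0262), FLI1 in LNCaP without LNCaP siNTC replicate 2 (0.0403), FLI1 with DHT without C42B Veh replicate 1 (0.0476) and ETS2 with DHT on median centring (0.0226). EHF in the difference passed on means of probe sets (0.0348). The causes were not tested. Dim members rest on low signal.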

Other observations

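Probe sets of EHF did not give the lines in 1 order. On 225645_at and 232361_s_at every LNCaP array lay below every C42B array, with means lower by 0.88 and 1.29 on the log2 scale. On 219850_s_at, 224189_x_at and 232360_at the LNCaP means were higher by 0.36, 0.28 and 0.10, and the arrays of the lines overlapped. ELK4 did likewise: 238761_at was higher on every LNCaP array, with a mean higher by 1.35, and 206919_at was lower on every LNCaP array, with a mean lower by 1.24. ETV4 was lower on every LNCaP array on both of its probe sets, with means lower by 0.94 and 1.50. Its LNCaP means were dim, at 5.94 with siLSD1 and 5.99 with siNTC on 211603_s_at and at 4.82 and 4.79 on 1554576_a_at. On 1554576_a_at the C42B groups with siLSD1 and siNTC were dim as well, at 5.85 and 5.96. ETV4 and ETV1, of the same group of ETS factors, thus stood in opposite order between the lines on all of their probe sets. Of all probe sets, 8.21% lay higher and 29.5% lay lower on every LNCaP array than on every C42B array. A lower level in LNCaP, as for ETV4, was thus the more common of the 2 orders on this scale. These are levels across experiments, without a test.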
